A study of Mus musculus with 4 samples.

Results

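The microRNA entries examined here belong to 4 sequence families, Mir297, Mir466, Mir467 and Mir669, most of which lie within the gene Sfmbt2 on mouse chromosome 2. They were taken by name, as every entry of the expression files whose symbol begins with Mir297, Mir466, Mir467 or Mir669, together with the host gene Sfmbt2. This gave 46 of 23259 genes, of which 45 are microRNA entries. The group was singled out because its entries were higher in knockout (KO) than in wild-type (WT) clones in earlier results of these same files. The KO and WT values below are therefore a description, and where a fit over all genes is given for this contrast, nothing is read from its calls. Several entries carry the same value in all 4 libraries, so identical sets were counted once, which left 29 distinct sets.

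RNA was measured in mouse embryonic stem cells with and without Gcn5 (gene symbol Kat2a), an enzyme that acetylates histones as part of SAGA and ATAC, to see how expression levels change in its absence. All 4 clones descend from Gcn5 flox/flox blastocysts, by way of 2 founder lines numbered 4 and 6. Each line was transfected transiently with a vector for a fusion of EGFP and Cre under the EF1α promoter and sorted by GFP after 72 hours. The WT clones, 4-1 and 6-1, were picked from the GFP-negative cells and keep the floxed alleles. The KO clones, 4C2 and 6C4, came from the GFP-positive cells and lack exons 3 to 18 of Gcn5 on both alleles. Every library is thus 1 clone, and each founder line gives 1 WT and 1 KO clone. The founder lines were grown on mitomycin-treated fibroblasts in medium with 15% serum and 1000 U/mL of LIF. Total RNA was used, and 1 µg of it received 2 µL of spike-in RNA diluted 100-fold. Values are spike-in normalized FPKM, a level scaled to the length of the entry.

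A microRNA is cut from a hairpin in a longer primary transcript, first by Drosha with Dgcr8 in the nucleus and then by Dicer1 in the cytoplasm, and the mature strand guides an Argonaute protein to messenger RNAs that pair with its seed. Sfmbt2 encodes a Polycomb-group protein with MBT domains, is expressed from the paternal allele in extraembryonic tissue, and is needed for the trophoblast. One of its introns holds a large, repeated microRNA cluster in mouse and rat. These libraries were made from total RNA, so an entry's value counts fragments over the hairpin's place and does not separate mature microRNA from hairpins or from intronic RNA of the host.

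All 45 entries matched a RefSeq microRNA gene, 44 by symbol and 1 by an older name. Of these, 42 lie inside Sfmbt2, all within a single intron, and 0 of them overlap an Sfmbt2 exon in the GENCODE annotation of GRCm38. The other 3 lie on other chromosomes. Mir467f, on chromosome 11, lies inside Fxr2 and opposite to it. Mir466i, on chromosome 13, lies likewise inside Cdk13. Mir297-1 is on chromosome 7. They carry the family names without the shared location. Their sequences from RefSeq (GRCm38.p6) are given to show the repeated letters of these entries, with the seed, bases 2 to 8 of the mature strand, in capitals.
mmu-miR-467f, chr11:69635419-69635439, minus strand: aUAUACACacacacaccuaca
mmu-miR-466i-3p, chr13:17747552-17747573, plus strand: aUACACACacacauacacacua
Mir297-1 hairpin, chr7:10958437-10958512, minus strand, with no mature strand marked: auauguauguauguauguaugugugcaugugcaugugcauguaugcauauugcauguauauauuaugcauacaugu
The mature strands hold runs of CA, and the hairpin repeats UG. Their seeds, UAUACAC and UACACAC, are not the same. RefSeq sequences were matched for these 3 entries only, so those of the 42 entries inside Sfmbt2 are not shown.

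The targeted gene was checked first. Kat2a stood at 38.7 and 34.4 FPKM in the WT clones of lines 4 and 6 and at 11.5 FPKM in each KO clone, so that both KO clones lay under both WT clones. A gene has a single value here, and what the exons left by the deletion contribute to it was not separated. Most genes were listed lower in KO: the median gene differed by -0.44 in line 4 and by -0.19 in line 6 on the log2(FPKM + 1) scale. Differences of members are therefore also given relative to this median gene. The comparison took the 11932 genes whose mean level reached 1 FPKM. The embryonic stem cell markers Pou5f1, Nanog, Sox2, Klf4, Esrrb, Zfp42, Dppa5a and Tdgf1 were all present, at a summed 5206 and 3274 FPKM in WT and KO of line 4 and 4120 and 3402 FPKM in line 6. All 8 were lower in KO in both lines, where only 2.36% of all tested genes were higher in KO in line 4 and 12.3% in line 6. Relative to the median gene the median differences of these markers were -0.22 and -0.09. In the limma test 0 of them passed, and 4 were lower at an unadjusted p under 0.05, where 5.46% of all genes were.

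Of the 29 distinct sets, 28 reached a mean of 1 FPKM. The exception, Mir297-1 on chromosome 7, was listed at 0.0094, 0.011, 0.011 and 0.0094 FPKM in WT and KO of line 4 and WT and KO of line 6. Those are the values that genes without signal share in each library. Above it, the next sets were Mir669h at a mean of 4.59 FPKM, Mir669e at 5.05 FPKM and Mir669a-3 at 5.26 FPKM, so no member lay close to the limit.

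The cluster was higher in KO in both founder lines. Of the 28 distinct sets, 25 were higher in KO than in WT within each line, where 0.964% of all tested genes were. All 25 lie inside Sfmbt2. The median log2 difference of the 28 sets was 0.43 in line 4, where 2.36% of tested genes were higher in KO, and 0.61 in line 6, where 12.3% were. Relative to the median gene these medians were 0.87 and 0.79. Of the 242 other distinct Mir entries tested, 13 (5.37%) were higher in KO in both lines, and their medians were -0.43 and -0.23, close to those of all genes.

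**Figure D1:**
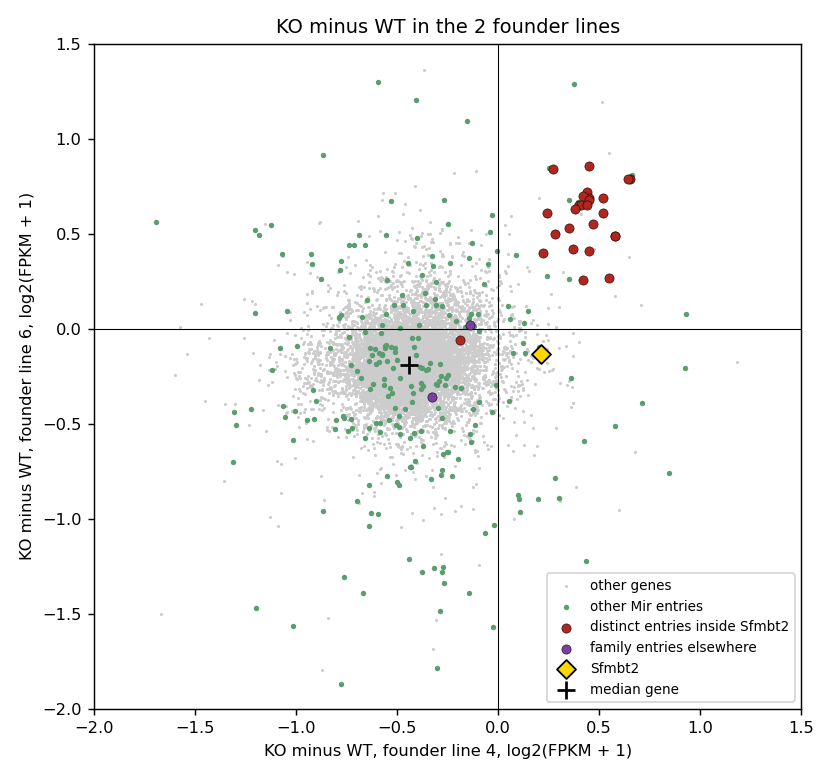
KO minus WT difference on the log2(FPKM + 1) scale in founder line 4 (horizontal) against founder line 6 (vertical) for the 11932 tested genes, with 16 genes outside the axes. The 25 distinct sets inside Sfmbt2 that were higher in both lines form a group to the upper right of the median gene (cross), whereas Mir669i, Mir466i and Mir467f lie near the mass of genes and Sfmbt2 (diamond) lies to the right only.

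Counted as genes rather than as distinct sets, 41 of the 115 tested genes that were higher in KO in both lines were cluster entries. A stricter count took sets at least 1.5-fold above the median gene. In line 4, 25 of 28 sets were (1.1% of all genes), in line 6 22 (1.11%), and in both lines 22 (0.436%). Counted as genes, 38 of the 52 behind the last share were cluster entries. For 11 sets both KO values were above both WT values, which held for 0.268% of all genes, or 32 genes, of which 11 were cluster entries. In the rest of the 25 sets, WT of line 6 lay at or above KO of line 4. These counts come from the contrast that chose the entries.

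Repeated entries dominate the cluster. Mir467a-2 shares its value with 5 others, Mir669a-4 with 8, Mir467a-3 with 2 and Mir669p-1 with Mir669p-2. In all, 20 of 44 tested entries fall into 4 sets with identical values, out of 33 genes in 10 such sets among all tested genes. How the authors assigned fragments that match several copies is not stated in the labels or file headers, so the value of any 1 copy is uncertain and identical copies were not taken as separate observations.

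The Mir467 entries inside Sfmbt2 were higher in KO in both lines in all 5 distinct sets. The Mir467a-2 set stood at 4.15 FPKM in WT and 6.02 in KO of line 4, and at 6.19 in WT and 10.6 in KO of line 6. Mir467a-1 stood at 4.75 and 6.83 FPKM in WT and KO of line 4 and at 7.01 and 12.2 FPKM in line 6. Mir467b had 4.59, 6.73, 7.03 and 10.7 FPKM in the same order. In each of the 3, the KO clone of line 6 was highest, the WT clone of line 4 was lowest, and the remaining libraries lay together between them. Across the 5 distinct Mir467 sets inside Sfmbt2 the KO minus WT log2 difference ran from 0.42 to 0.47 in line 4 and from 0.55 to 0.72 in line 6.

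The 3 distinct Mir466 sets inside Sfmbt2 were also higher in KO in both lines. Mir466 stood at 4.59 and 7.04 FPKM in WT and KO of line 4 and at 7.03 and 11.9 FPKM in line 6, a log2 difference of 0.52 and 0.69. Mir466g stood at 5.85, 8.39, 6.41 and 12.5 FPKM, differences of 0.45 and 0.86, and its KO values did not overlap its WT values, which lay close together. Mir4660, an older name of a Mir466 entry in the cluster, stood at 5.18, 7.45, 7.52 and 10.4 FPKM, so that WT of line 6 lay above KO of line 4. For Mir466 those libraries differed by less than the value of 1 read.

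The 3 distinct Mir297 sets inside Sfmbt2 were Mir297a-3, Mir297b and Mir297c. Mir297c stood at 3.81 and 6.21 FPKM in line 4 and at 6.1 and 8.97 FPKM in line 6. Mir297a-3 stood at 3.62, 5.9, 5.8 and 8.53 FPKM. In both, the difference was larger in line 4 (0.58) than in line 6 (0.49), the reverse of most of the cluster: 22 of 28 sets had the larger difference in line 6, as did 89% of all tested genes.

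Mir669 is the largest family, with 15 distinct sets inside Sfmbt2. Their medians, 0.40 in line 4 and 0.61 in line 6 on the log2 scale, lay beside 0.45 and 0.69 for Mir467, but the family spanned a wider range. The largest difference in line 4 was in Mir669m-1, which stood at 3.57 and 6.17 FPKM in line 4 and at 5.46 and 10.2 FPKM in line 6, differences of 0.65 and 0.79. Mir669m-2, its neighbour, stood at 3.43, 5.91, 5.24 and 9.77 FPKM, with differences of 0.64 and 0.79. The KO values of both were above all WT values. At the lower end, Mir669g stood at 5.17, 6.17, 5.13 and 7.08 FPKM (0.22 and 0.40), and the Mir669p-1 set at 4.63, 5.64, 6.35 and 10.3 FPKM (0.24 and 0.61).

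The cluster's first entries, Mir669e and Mir669b, had the smallest differences in line 6 among the 25 sets. Mir669e stood at 3.11, 4.49, 5.64 and 6.95 FPKM, a difference of 0.42 in line 4 and 0.26 in line 6. Mir669b, named after its values were seen, stood at 3.47, 5.51, 6.51 and 8.08 FPKM, with 0.55 and 0.27. At the other end Mir669h, the last of the 42 entries, also had modest differences, 0.37 and 0.42. No order along the cluster was tested.

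**Figure D2:**
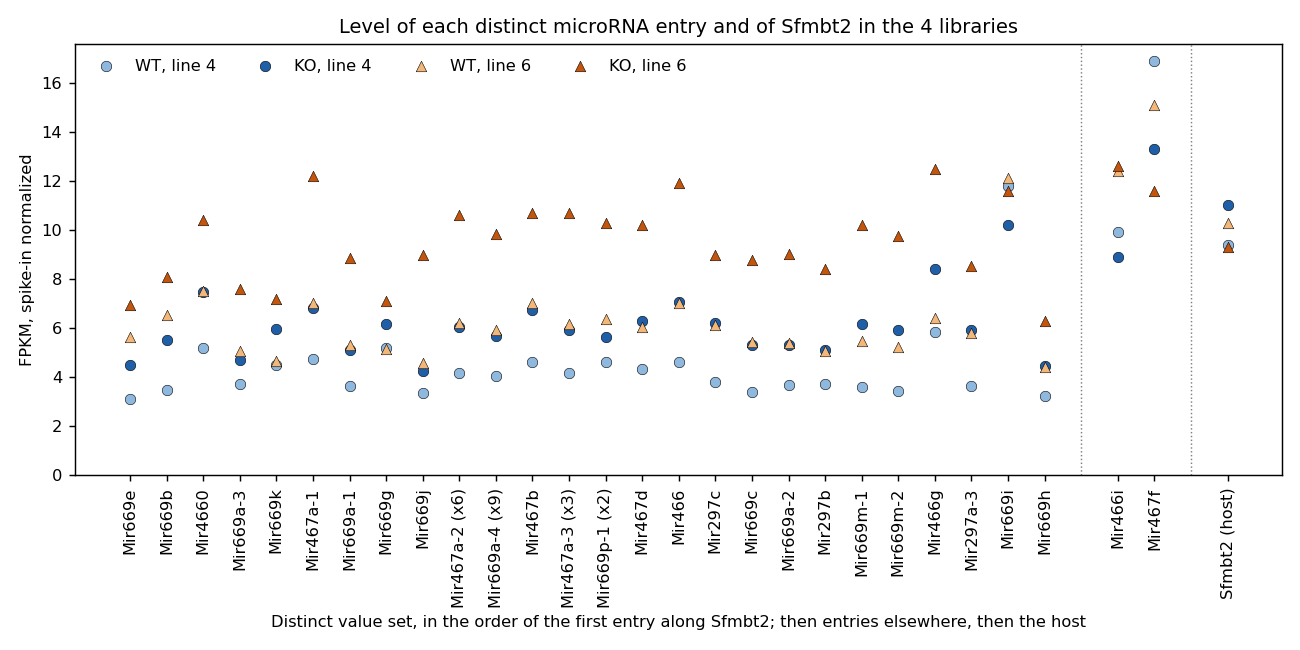
FPKM of the 28 distinct sets and of Sfmbt2 in each library (circles for line 4, triangles for line 6, dark for KO), in the order of the sets' first entries along the host, with the number of identical entries in parentheses. In most sets KO of line 6 is highest and WT of line 4 lowest, while Mir669i, Mir466i and Mir467f stand at 8.88 to 16.9 FPKM without that order.

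A single set inside Sfmbt2 did not follow the others. Mir669i, the last entry but 1 of the cluster, stood at 11.8 and 10.2 FPKM in WT and KO of line 4 and at 12.1 and 11.6 FPKM in line 6. Its KO value lay under its WT value in each line, as for most genes. Only 2.36% of tested genes were higher in KO in line 4, and 12.3% in line 6. For Mir669i the means were 12 ± 0.226 FPKM over the WT clones and 10.9 ± 0.984 FPKM over the KO clones (SD, n = 2). Its log2 differences were -0.19 and -0.06. Measured from the median gene they were 0.26 and 0.13. In the WT clone of line 4 its level was the highest in the cluster, where the other 25 sets reached 5.85 FPKM at most.

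The family members on other chromosomes did not show the cluster's pattern either. Mir467f stood at 16.9 and 13.3 FPKM in WT and KO of line 4 and at 15.1 and 11.6 FPKM in line 6. It was lower in KO in both lines, as were most genes, with differences of -0.33 and -0.36. Mir466i stood at 9.92, 8.88, 12.4 and 12.6 FPKM, with differences of -0.14 and 0.02, and its libraries overlapped. Relative to the median gene, Mir467f lay at 0.12 and -0.18 and Mir466i at 0.30 and 0.20. The genes in which they lie stayed near the median gene: Fxr2, an RNA-binding protein of the fragile X family, lay at -0.12 and 0.02 from it, and Cdk13, a kinase of the RNA polymerase II tail, at 0.04 and 0.10. No source used here says whether the authors counted by strand, so reads of an entry and of the gene opposite to it cannot be told apart.

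The host gene differed less than its entries. Sfmbt2 stood at 9.38 and 11.0 FPKM in WT and KO of line 4 and at 10.3 and 9.3 FPKM in WT and KO of line 6. Its mean was 9.82 ± 0.619 FPKM over the WT clones and 10.1 ± 1.19 FPKM over the KO clones (SD, n = 2), and the libraries overlapped. KO minus WT was 0.21 in line 4 and -0.13 in line 6 on the log2 scale, and 0.65 and 0.06 when measured from the median gene. Among all tested genes, 99.1% had a lower difference than Sfmbt2 in line 4 and 65.9% in line 6. The direction of Sfmbt2 in line 6 turned with the scaling: it was 0.02 once each library was centred on its median gene.

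Set against the host, the entries' median difference was larger by 0.22 in line 4 and by 0.74 in line 6. Of 28 sets, 25 exceeded Sfmbt2 in both lines, as did 0.629% of all genes. The ratio of an entry's FPKM to the host's had a median over the 25 sets of 0.406 in WT and 0.539 in KO of line 4, and of 0.566 in WT and 0.969 in KO of line 6. These 25 were kept for being higher in KO in both lines, which favours a higher ratio in KO. Over all 26 sets inside Sfmbt2 the medians were 0.419, 0.539, 0.57 and 1.01 in the same order. In line 6 KO the ratio over the 25 sets ran from 0.674 to 1.34, and in line 4 WT from 0.332 to 0.623. FPKM is divided by hairpin length, so this range between sets is not one of read numbers alone. In line 6 KO the lowest, Mir669h, had 18 estimated reads over 125 bases, and the highest, Mir466g, 23 over 80 bases. Mir669i stood apart, with ratios of 1.26, 0.932, 1.18 and 1.25 in the same order of libraries. The sets share libraries and a denominator, and some may share reads, so their agreement is not an independent count.

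**Figure D3:**
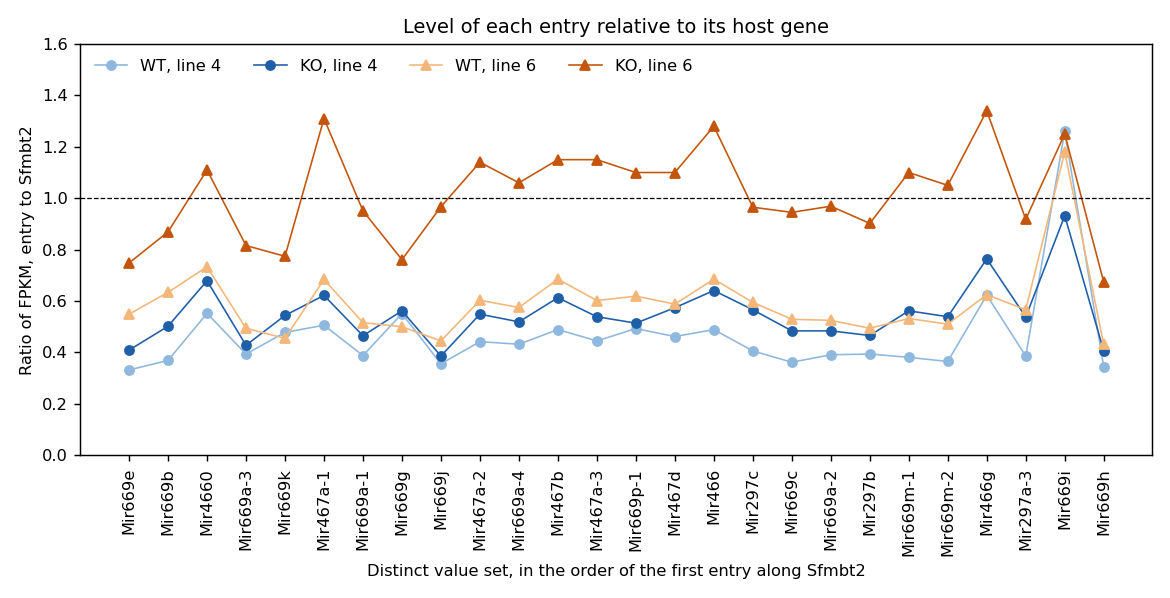
Ratio of FPKM to that of Sfmbt2 for each of the 26 distinct sets inside the host, in the 4 libraries, in the order of the first entries along the host. The dashed line marks equal FPKM, and differences between sets also carry hairpin length. Among these sets, KO of line 6 lies above the other libraries in all but Mir669i, from 0.674 in Mir669h to 1.34 in Mir466g.

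The number of fragments behind these values is small. For short entries with a single block, FPKM times the hairpin's length in kilobases moved in equal steps within a library. Among other Mir entries worth fewer than 20 steps, 96.6% to 99.3% of values lay within 0.1 of a whole step, so that a step was taken as 1 fragment, called a read here. On this estimate the 25 sets rested on 10 to 19 reads in WT and 22 to 34 in KO of line 4, with medians of 11 and 23.9. In line 6 they rested on 13 to 17 reads in WT and 18 to 25 in KO, with medians of 14 and 20.1. Of the 26 distinct sets inside Sfmbt2, 10 were at 13 reads in the WT clone of line 6. Of these 26 sets, 17 to 23 per library lay within 0.1 of a whole step, a smaller share than among the other Mir entries, so their reads are less certain. The farthest from whole steps, at 0.40 to 0.50 of a step in at least 1 library, were the Mir669p-1 and Mir669a-4 sets, Mir669a-1, Mir669m-1, Mir467a-1 and Mir669a-2.

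These numbers set the precision. Mir466 rested on 10 reads in WT of line 4, with an exact 95% Poisson interval of 4.8 to 18.4 reads, and on 23 in KO, with 14.6 to 34.5. In line 6 it rested on 13 reads in WT (6.92 to 22.2) and on 20 in KO (12.2 to 30.9). On the FPKM scale these intervals are 2.21 to 8.46 against 4.46 to 10.6 in line 4 and 3.75 to 12 against 7.28 to 18.4 in line 6. WT and KO intervals overlapped within each line for each of the 6 entries examined. For Mir466g in line 6 they were 3.42 to 11.0 and 7.93 to 18.8 FPKM. The intervals cover counting error alone, not the difference between clones. The entries with the most reads were those without the pattern: Mir669i with 33.9 to 58.1, Mir466i with 34.9 to 48.1 and Mir467f with 31.9 to 71.2.

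**Figure D4:**
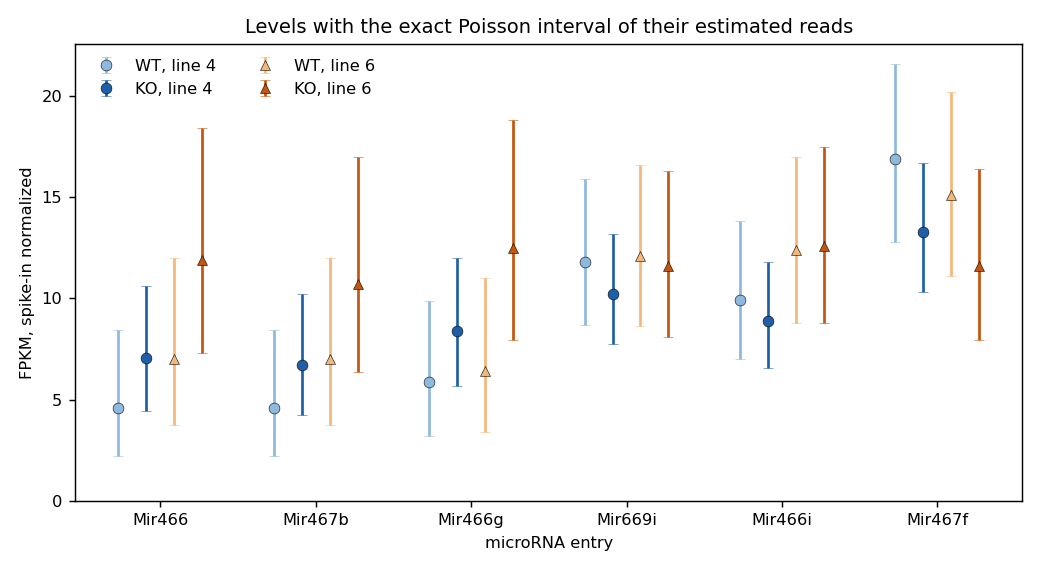
FPKM of 6 entries in the 4 libraries with exact 95% Poisson intervals of their estimated reads. The KO point lies above the WT point of its line in Mir466, Mir467b and Mir466g with overlapping intervals, and the points of Mir669i, Mir466i and Mir467f are not ordered that way.

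In the test over all genes (limma, Benjamini-Hochberg adjusted over 11932 genes), 2 genes differed between KO and WT (0.0168%) and 0 of the 28 sets did. At an unadjusted p under 0.05 there were 3, Mir669m-1, Mir669m-2 and Mir466g, all higher in KO, as were 0.0838% of all genes. With the founder line as a block, 0.796% of genes were called and 0 sets. With that block after each library was centred on its median gene, 0.277% were called (0.26% higher in KO), and 9 sets that stand for 24 entries, all higher in KO. They were Mir466, Mir466g, Mir467a-1, the Mir467a-2 set, the Mir467a-3 set, Mir467d, the Mir669a-4 set, Mir669m-1 and Mir669m-2. Since this contrast chose the entries, nothing is read from these calls. Sfmbt2 was not called in any of these fits.

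The difference between the founder lines was not used to choose the entries. The sets stood higher in line 6: 26 of 28 in WT, where 32.6% of all genes did, and 27 of 28 in KO, where 63.3% did. Over the 25 sets the median ratio of line 6 to line 4 was 1.47 in WT and 1.64 in KO. Over all tested genes it was 0.895 and 1.1. On the log2 scale the median line difference of the 28 sets was 0.56, and that of all genes -0.01.

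In limma, 1.98% of genes passed the test between the lines and 0 of the 28 sets did, with adjusted p between 0.522 and 0.999. At an unadjusted p under 0.05 there was 1 set, Mir669j, whose difference was 0.65 (SE 0.316, limma adjusted p = 0.522), against 8.62% of all genes. Mir669j stood at 3.34 and 4.23 FPKM in WT and KO of line 4 and at 4.57 and 8.99 FPKM in line 6, higher in line 6 in both genotypes. With genotype as a term it was called (limma adjusted p = 0.0423), beside 9.13% of all genes. Without KO replicate 1, the KO clone of line 4, 21 sets were called, all higher in line 6, with differences of 0.62 to 0.89 and limma adjusted p between 0.00184 and 0.0447, beside 13.5% of all genes. Line 4 is then 1 WT library, assumed to vary like the others, and is set against WT and KO of line 6, so this contrast also carries the KO minus WT difference that chose the entries. On values centred by library, Mir466i alone was called (limma adjusted p = 0.0467), beside 30.2% of all genes. Sfmbt2 did not pass the test between the lines (difference -0.05, SE 0.338, limma adjusted p = 0.999).

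The genes that make microRNAs were mostly listed lower in KO, as were most genes. Of 22 tested genes of microRNA processing, 0 were higher in KO in line 4, where 2.36% of all genes were, and 1 in line 6, where 12.3% were. In the limma test 0 of them passed in either direction, also at an unadjusted p under 0.05. Their median differences were -0.50 and -0.17, close to the median gene. Drosha, the nuclear nuclease, stood at 45.4 and 32.3 FPKM in line 4 and at 47.7 and 44.0 FPKM in line 6. Its RNA-binding partner Dgcr8 stood at 11.7, 9.48, 16.7 and 15.1 FPKM, and Dicer1 at 19.5, 15.3, 16.4 and 12.8 FPKM; these 3 are named for their roles, after their values were seen. Ran, the GTPase that works with exportin 5, was the most abundant of the list at 603, 426, 592 and 487 FPKM.

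Other microRNA loci known from stem cells were mostly listed lower in KO, as were most genes. Of 21 entries of the Mir290, Mir302, Mir17 and Mir106b clusters, 0 were higher in KO in line 4, where 2.36% of all genes were. In line 6 it was 3, where 12.3% of all genes were. Their median differences were -0.34 and -0.35. None passed the limma test, and 6 of the 21 were lower at an unadjusted p under 0.05, a larger share than the 5.46% of all genes. Relative to the median gene their medians were 0.11 and -0.16, and single entries lay farther from it. In line 6 Mir302a lay at -0.46 and Mir367 at -0.6 from it, and in line 4 at 0.19 and 0.11. The most abundant, Mir25, stood at 131 and 105 FPKM in line 4 and at 118 and 96.6 FPKM in line 6. Mir295, of the cluster that marks early embryonic cells, stood at 77.1, 41.5, 36.3 and 43.7 FPKM. Genes near Sfmbt2 on chromosome 2 followed the median gene: 5 of 11 were tested, with medians of -0.46 and -0.14, and 0 passed the limma test, also at an unadjusted p under 0.05. Rbm17, a splicing factor, stood at 127, 82.8, 101 and 91.8 FPKM, and Taf3, a subunit of TFIID, at 3.28, 2.23, 2.97 and 2.81 FPKM. The 8 Polycomb-type genes, among them Yy1 and L3mbtl2, had medians of -0.49 and -0.23, with 0 passing the limma test and 1 lower at an unadjusted p under 0.05, beside the same 5.46% of all genes.

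Markers of other cell types were set beside these values. Because these are bulk libraries, fewer cells of a type and less RNA per cell cannot be told apart. Markers of feeder fibroblasts were present in every library: their summed level was 218 FPKM in WT and 153 in KO of line 4, and 128 in WT and 159 in KO of line 6. Of 10 tested, 0 were higher in KO in line 4, where 2.36% of all genes were, and 9 in line 6, where 12.3% were. Relative to the median gene their median difference was 0.06 in line 4 and 0.52 in line 6, beside 0.87 and 0.79 for the cluster, and their part in its level was not tested.

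Sfmbt2 is known from trophoblast, and of 10 trophoblast markers 5, Cdx2, Elf5, Gata3, Hand1 and Tpbpa, stayed under 1 FPKM in every library. The summed level of the list was 63.7 and 60.3 FPKM in line 4 and 51.9 and 60.2 FPKM in line 6, most of it from Tfap2c and the keratins. Of the 5 tested, 2 were higher in KO in each line, beside 2.36% of all tested genes in line 4 and 12.3% in line 6. Krt8 stood at 9.73, 13.2, 14.4 and 22.4 FPKM and Krt18 at 14.3, 16.0, 16.6 and 20.7 FPKM, both higher in KO in both lines, as were 0.964% of all tested genes. Tfap2c stood at 35.5, 27.6, 16.3 and 13.2 FPKM, lower in KO in both. Eomes (2.0, 1.58, 1.73 and 1.34 FPKM) and Ascl2 (1.82, 1.4, 2.37 and 1.73 FPKM) were lower in KO in both lines as well. Of 7 markers of extraembryonic endoderm 3 were tested, with a summed level of the list between 3.19 and 11.8 FPKM. In the limma test 0 markers of these 3 cell types passed, also at an unadjusted p under 0.05.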

How the data were processed

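Per the file headers, the authors deposited 1 spike-in normalized FPKM value per gene and library. The submitters' processing notes list affy, HTSeq, edgeR, TopHat2 2.0.9, Bowtie 0.12.8 and the build mm9, with no role. How the authors scaled FPKM to the spike-ins, added per mass of RNA as mix 1 or 2, and whether feeder cells were removed are points not given in the sources used here. Of 23376 rows per file, 92 spike-ins and 25 date-like names without a partner were left out. Depth is not given; reads were estimated from FPKM steps with RefSeq hairpin lengths.

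Tests used log2(FPKM + 1), a scale that makes changes of low genes look smaller. They were run with limma 3.58.1 in R 4.3.3 (eBayes with trend, two-sided, Benjamini-Hochberg, threshold 0.05) on all 4 libraries. The code was first tried on simulated data without a founder-line effect or a library shift, which does not show how it performs on these libraries. Clone names in the labels show that a replicate number stands for 1 founder line, which pairs the samples; across genes, same-numbered libraries deviated from their group means together, at a correlation of 0.70. Each group holds 2 clones, 1 per line, and eBayes draws the spread of each gene toward that of genes at a similar level. A p-value therefore does not measure the spread of that gene between these clones alone. In the test between the lines, the SE was 0.343 for Kat2a and 0.338 for Sfmbt2, although KO minus WT of Kat2a was -1.67 and -1.5. The members and gene lists were chosen with earlier results of these data known. Named entries were Sfmbt2, Kat2a, up to 12 sets with the highest mean, the 6 with the highest and the 6 with the lowest smaller-of-the-lines difference, those nearest the filter, and up to 6 per list by mean; names outside this rule were chosen after their values were seen. Alternatives changed the pseudocount, the filter, the scaling, the counting of entries, the libraries and the model terms. RefSeq tables are of another build and gave names, lengths, order and sequences.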

Additional observations from a re-analysis of the deposited data

Results flagged for a closer look

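Sfmbt2 went opposite ways in the founder lines: KO minus WT was 0.21 in line 4 and -0.13 in line 6 on the log2(FPKM + 1) scale. Mir466i, the entry inside Cdk13, did so as well, at -0.14 in line 4 and 0.02 in line 6. Relative to the median gene neither turned: Sfmbt2 lay at 0.65 and 0.06 and Mir466i at 0.30 and 0.20. With 1 WT and 1 KO clone per line, the difference between the lines was not tested for either. No group held 4 samples, so no library could be checked for standing apart from its group.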

How the results depend on the processing

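Values centred on each library's median gene moved the entries' median difference to 0.89 in line 4 and 0.76 in line 6, and quantile normalization to 0.85 and 0.78, as both remove the shift of the median gene. Sfmbt2 moved to 0.67 with centring and 0.66 with quantile normalization in line 4, and in line 6 it turned from -0.13 to 0.02 under both. The difference between entries and Sfmbt2 stayed between 0.19 and 0.29 in line 4 and between 0.73 and 0.82 in line 6 under all alternatives run. Counting every entry instead of distinct sets raised the number at least 1.5-fold above the median gene from 25 to 41 in line 4 and from 22 to 38 in line 6, by construction. Without a filter the numbers of distinct sets were 19 and 17. The median gene was then taken over all genes, including those without signal, while the median differences of the sets themselves were 0.42 and 0.61.

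With the replicate block, the founder line that pairs WT and KO, 0 members were called between KO and WT, and with the block on centred values 9 were. Leaving out single libraries gave 0 to 0 members between KO and WT and 0 to 21 between the lines, the 21 without KO replicate 1. Centring gave 1 member between the lines, Mir466i (limma adjusted p = 0.0467, with 30.2% of all genes called), and genotype as a term gave 1, Mir669j. The cause was not tested. Of all alternatives, 53 left the value within its spread or 1.5 times, 12 moved it and 2 reversed it. About 10 to 34 estimated reads per library limit every comparison of a single one of the 25 sets higher in KO.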
